A study of Mus musculus with 2 samples.

Results

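The genes of cholesterol and fatty acid synthesis, 33 of the 55487 gene IDs in the deposited count table, were compared between 2 cultures of mouse haematopoietic cells. The members were taken from a fixed list of symbols and found by the Ensembl ID of each symbol on GRCm38, and all 33 were found and detected. They comprise 18 enzymes of sterol synthesis, 9 enzymes of fatty acid synthesis, 5 regulators of the SREBP pathway and the sterol transport protein gene Stard4, and they do not include every enzyme of these pathways.

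Cholesterol is built from acetyl-CoA through mevalonate and the isoprenoid farnesyl diphosphate, which is joined to squalene, closed to lanosterol and trimmed to cholesterol. Fatty acids are built from the same acetyl-CoA by carboxylation and repeated condensation, after which elongases lengthen the chain and desaturases introduce double bonds. Both branches are driven by the SREBP transcription factors, whose precursors are escorted out of the endoplasmic reticulum by SCAP when sterol is scarce and held there by the INSIG proteins when it is plentiful. Proliferating blood cells draw on both branches for membrane.

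The EVI1+18 culture was transduced with the retroviral vector pMYs-IG carrying 3xHA-tagged EVI1+18 (by the series title the study concerns aberrant EVI1 splicing), and the EVI1-WT culture with the same vector carrying tagged wild-type EVI1, the zinc finger transcription factor of the Mecom gene. Both started from lineage-negative bone marrow cells of C57BL/6 mice, were sorted for the green fluorescence marker 3 days after infection, and were plated at 10000 cells in the semi-solid medium MethoCult M3434 for about 3 weeks. Expression was retroviral overexpression in otherwise wild-type cells, and cells with an empty vector were not analysed here. Each vector was represented by 1 library, of 20981903 counts for EVI1+18 and 20480447 for EVI1-WT, so differences have no replicate check and the vectors could not be tested against each other. Intervals are 95% exact counting intervals on the ratio of EVI1+18 over EVI1-WT, after scaling for library size (scaled CPM). They cover counting error only, between these libraries. The 2-fold rule called a gene higher if the lower bound of its ratio exceeded 2, and lower if the upper bound stayed under 1/2.

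The 2 cultures differed in cell type markers. The summed level of 12 erythroid markers was 648 scaled CPM in EVI1+18 and 62.0 in EVI1-WT. That of 9 megakaryocyte markers was 1359 and 475, with Gp6 at 0 counts in EVI1+18 and Tubb1 at 0 in EVI1-WT. The megakaryocyte sum leaned on Itga2b, which alone had 718 scaled CPM in EVI1+18 and 447 in EVI1-WT, a ratio of 1.61. The sum over 11 macrophage markers was 1726 scaled CPM in EVI1+18 and 811 in EVI1-WT, with C1qa at 0 counts in both and C1qc at 0 in EVI1-WT. This macrophage sum leaned on Gpnmb, which alone had 1214 scaled CPM in EVI1+18 and 242 in EVI1-WT, whereas Adgre1 had 94.4 and 246. The sum over 9 mast cell and basophil markers was 789 scaled CPM in EVI1+18 and 5332 in EVI1-WT. Over 6 eosinophil markers it was 148 and 849, with Ear1 at 0 counts in EVI1+18, and over 9 neutrophil markers 422 and 2043. The neutrophil sum leaned on Chil3, which alone had 276 scaled CPM in EVI1+18 and 1514 in EVI1-WT. By the 2-fold rule 11 of 12 tested erythroid, 7 of 8 megakaryocyte and 5 of 8 macrophage markers were higher in EVI1+18. Lower were 5 of 9 mast cell and basophil, 4 of 4 eosinophil and 5 of 8 neutrophil markers. Against these directions, 2 mast cell and basophil markers were higher and 1 macrophage marker lower. Of all 13183 tested genes, those that reached 1 scaled CPM in either library, 5.05% were higher and 5.1% lower. The 4 pan-haematopoietic markers were present in both, at a sum of 1078 and 1361 scaled CPM. The 7 stromal, epithelial and endothelial markers summed to 274 and 453 scaled CPM, of which Pecam1 alone held 268 in EVI1+18 and 427 in EVI1-WT. Only 2 of the 7 reached 1 scaled CPM in either library, Pecam1 and Epcam, and Epcam had 5.59 in EVI1+18 and 25.4 in EVI1-WT. Of the others, Col1a2 was at 0 counts in both libraries, Krt18 at 0 in EVI1+18 and Cdh5 at 0 in EVI1-WT. The part of this difference in cell makeup in the results on lipid genes was not tested, and in bulk RNA more cells of a type and more RNA per cell cannot be told apart.

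Most lipid synthesis genes stood slightly lower in EVI1+18, and 1 stood clearly higher. Of the 33 genes, 26 had a log2 ratio below 0, or 78.8%, beside 49.1% of the 13183 tested genes, those that reached 1 scaled CPM in either library. The median log2 ratio was -0.29 over the members and 0.01 over all tested genes. For 24 members the whole counting interval lay below 1, for 5 it lay above 1, and for 4 it included 1. By the 2-fold rule 1 member was higher, Idi1, beside 5.05% of tested genes, and 2 were lower, Cyp51 and Fdps, beside 5.1%. Those 3 of 33 are near the 10.1% of tested genes called in either direction. With a 1.5-fold rule Acat2, Insig1, Fasn and Scd1 were also lower, which made 6 of 33 beside a background of 9.79%, and Idi1 remained the 1 member called higher, beside 8.29%. The share of members below 0 was not tested.

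**Figure D1:**
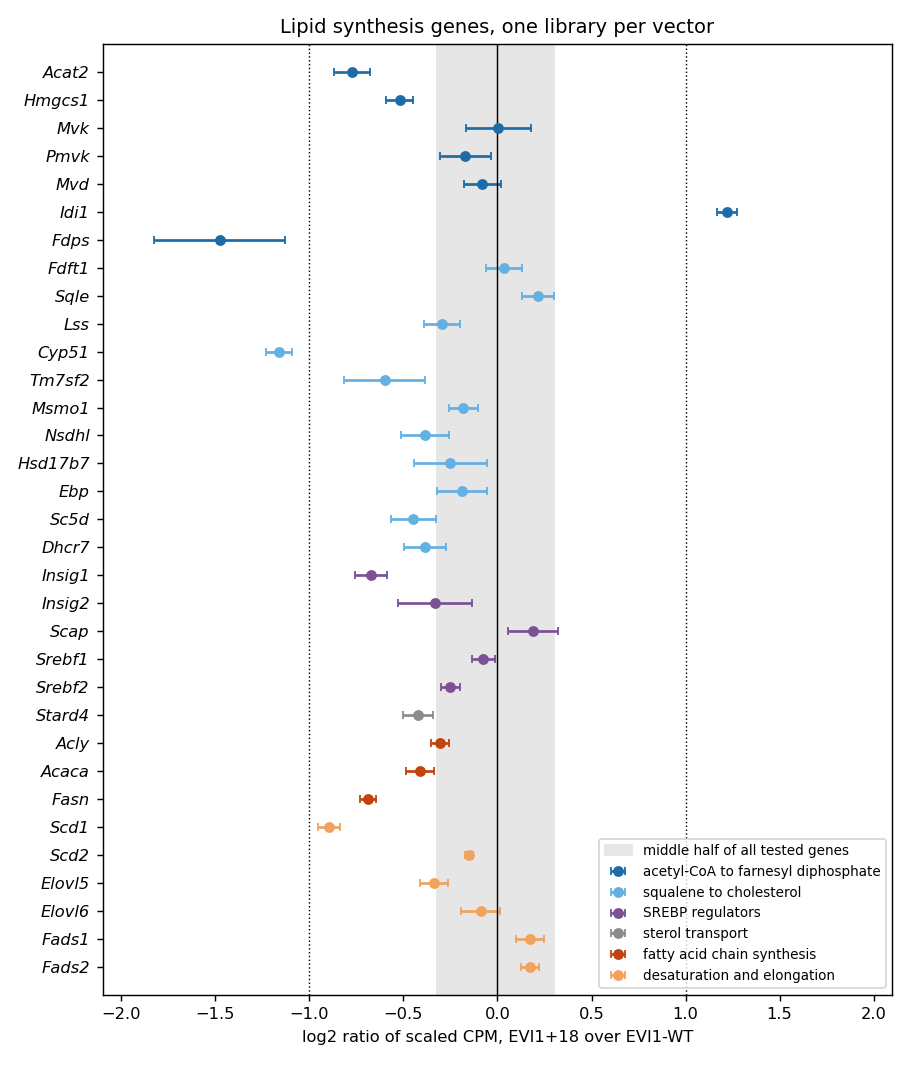
Log2 ratio of scaled CPM, EVI1+18 over EVI1-WT, for the 33 genes in pathway order from top to bottom, coloured by branch. Bars are 95% counting intervals from 1 library per vector, dotted lines mark 2-fold, and the grey band spans the quartiles of all tested genes, from -0.32 to 0.30. Idi1 lies to the right of the upper dotted line at a log2 ratio of 1.22, and Cyp51 and Fdps lie to the left of the lower one.

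The branches had similar medians. The median log2 ratio was -0.27 over the 18 sterol enzymes, -0.30 over the 9 fatty acid enzymes and -0.25 over the 5 SREBP regulators, and 14 of 18, 7 of 9 and 4 of 5 genes lay below 0. The summed level of the fatty acid enzymes was 3506 scaled CPM in EVI1+18 and 4161 in EVI1-WT, a ratio of 0.843 (0.834 to 0.851). The sum over the sterol enzymes was 1564 scaled CPM in EVI1+18 and 1641 in EVI1-WT, a ratio of 0.953 (0.939 to 0.968). Each sum leaned on 1 gene. Scd2 held 52.9% of the fatty acid branch counts in EVI1+18 and 49.5% in EVI1-WT, and without it the sum was 1651 scaled CPM in EVI1+18 and 2101 in EVI1-WT, a ratio of 0.786 (0.775 to 0.797). Idi1 held 30.1% of the sterol branch counts in EVI1+18 and 12.3% in EVI1-WT, and without it the sum was 1092 in EVI1+18 and 1438 in EVI1-WT, a ratio of 0.759 (0.746 to 0.773). Both omissions were chosen after the values were seen.

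**Figure D2:**
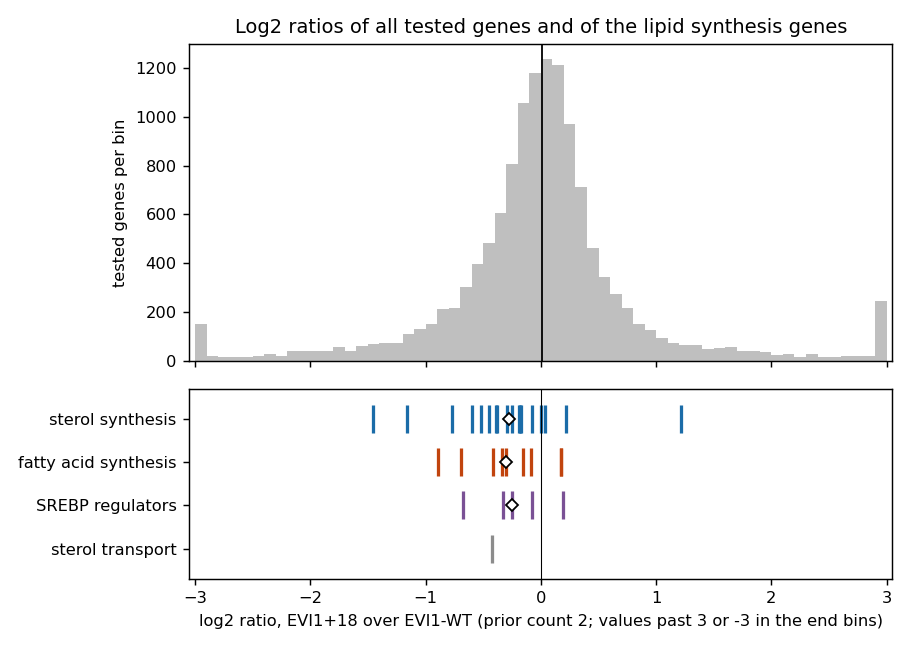
The upper panel counts tested genes by log2 ratio of EVI1+18 over EVI1-WT, with the median of all tested genes as a line and values beyond the axis in the end bins. The lower panel marks each lipid gene by branch, with diamonds at branch medians of -0.27, -0.30 and -0.25, all left of the all-gene median of 0.01.

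In the first steps, from acetyl-CoA to farnesyl diphosphate, the 7 genes did not run together. Acat2, the cytosolic acetoacetyl-CoA thiolase that starts the pathway, had 68.1 scaled CPM in EVI1+18 and 117 in EVI1-WT, a ratio of 0.584 (0.547 to 0.624). Its counts are uncertain, since 39.1% of its 50-base words occur at other loci, and its near-identical relative Acat3 had 159 counts in EVI1+18 and 216 in EVI1-WT, a ratio of 0.687 (0.556 to 0.847). Hmgcs1, the cytosolic HMG-CoA synthase of the next step, had 121 scaled CPM in EVI1+18 and 174 in EVI1-WT, a ratio of 0.697 (0.662 to 0.734). Both entry enzymes were lower in EVI1+18. The 2 kinases and the decarboxylase that turn mevalonate into isopentenyl diphosphate stood closer to equality. Mevalonate kinase, Mvk, had 26.1 scaled CPM in EVI1+18 and 26.0 in EVI1-WT, with an interval from 0.889 to 1.13. Phosphomevalonate kinase, Pmvk, had 41.5 in EVI1+18 and 46.7 in EVI1-WT, a ratio of 0.888 (0.810 to 0.975). The decarboxylase Mvd had 76.9 in EVI1+18 and 81.3 in EVI1-WT, with an interval from 0.883 to 1.01 that included equality.

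Idi1 (ENSMUSG00000058258; chromosome 13, 8885501 to 8892451, plus strand) encodes isopentenyl-diphosphate isomerase, which interconverts the 2 five-carbon isoprenoid units. It had 10116 counts in EVI1+18 and 4056 in EVI1-WT, or 471 and 203 scaled CPM, a ratio of 2.33 (2.24 to 2.41). Of all tested genes, 93.8% had a lower log2 ratio. A processed pseudogene on chromosome 2, Gm13502, is identical to Idi1 over its whole length, which aligns to 22.6% of the Idi1 transcript, and it had 1311 counts in EVI1+18 and 508 in EVI1-WT, a ratio of 2.41 (2.17 to 2.67). Of the 50-base words of Idi1, 17.7% occur in transcripts of other loci. Reads from the stretch identical to Gm13502 cannot be told apart, so the ratio of Gm13502 is not a separate observation. Adding the reads of Gm13502 to Idi1 gave a ratio of 2.34. The 3 other annotated copies had 0 counts in both libraries and added nothing. Relative to Mvd, the enzyme just before it, Idi1 was 2.46-fold higher in EVI1+18 than in EVI1-WT (2.28 to 2.66), a comparison within each library that does not depend on the scaling.

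Fdps (ENSMUSG00000059743; chromosome 3, 89093588 to 89101959, minus strand), the farnesyl diphosphate synthase that uses the product of Idi1, went the other way with few reads. It had 98 counts in EVI1+18 and 254 in EVI1-WT, or 4.57 and 12.7 scaled CPM, a 2.78-fold lower level in EVI1+18 (2.19 to 3.54). Its counts are uncertain. Of its exon length 26.7% is shared with the overlapping gene Gm43738 on the same strand, and 15.5% of its 50-base words occur in transcripts of other loci, among them processed pseudogenes. With the reads of 5 such copies added its ratio was 0.394, and it was still called lower.

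From squalene on, 9 of 11 genes lay below 0, beside 49.1% of tested genes. By the 2-fold rule 1 was called lower, beside 5.1%. Fdft1, the squalene synthase, had 89.7 scaled CPM in EVI1+18 and 87.5 in EVI1-WT, with an interval from 0.960 to 1.09. Of its exon length 18.3% overlaps the cathepsin gene Ctsb on the opposite strand, which had 22437 counts in EVI1+18 and 9980 in EVI1-WT, so without a known strand setting the counts of Fdft1 may include reads of Ctsb. Sqle, the squalene epoxidase and a rate-controlling step, had 118 scaled CPM in EVI1+18 and 102 in EVI1-WT, a ratio of 1.16 (1.09 to 1.23), the highest in this stretch. Lss, which closes the ring to lanosterol, had 80.2 in EVI1+18 and 98.4 in EVI1-WT, a ratio of 0.815 (0.764 to 0.870).

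Cyp51 (ENSMUSG00000001467; chromosome 5, 4081145 to 4104746, minus strand), the cytochrome P450 that removes the first methyl group of lanosterol, had 2535 counts in EVI1+18 and 5298 in EVI1-WT. This is 118 and 265 scaled CPM, a 2.24-fold lower level in EVI1+18 (2.14 to 2.35). Relative to Lss, the step before it, Cyp51 was 1.82-fold lower in EVI1+18 than in EVI1-WT (1.68 to 1.98). Relative to Tm7sf2, the step after it, Cyp51 was 1.48-fold lower (1.27 to 1.73), a pair added after the values were seen, and relative to the later Msmo1 it was 1.97-fold lower (1.84 to 2.12). Its antisense neighbour Akap9 overlaps 3.76% of its exon length.

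After Cyp51, all 7 enzymes stood lower in EVI1+18, by less than the rule asks. The sterol reductase gene Tm7sf2 had 14.1 scaled CPM in EVI1+18 and 21.3 in EVI1-WT, a ratio of 0.660 (0.568 to 0.767), and 12.1% of its exon length is shared with Vps51. Msmo1 and Nsdhl, which with Hsd17b7 remove the remaining methyl groups at carbon 4, had ratios of 0.882 (0.837 to 0.930) and 0.766 (0.702 to 0.836). Hsd17b7 had 19.3 scaled CPM in EVI1+18 and 23.0 in EVI1-WT, a ratio of 0.840. The closing steps were alike in direction. The sterol isomerase Ebp had a ratio of 0.877 (0.7996 to 0.962), the desaturase Sc5d 0.734 (0.675 to 0.797) and the final reductase Dhcr7 0.764 (0.708 to 0.826). Dhcr7 had 55.7 scaled CPM in EVI1+18 and 72.9 in EVI1-WT. The 11 genes from squalene on summed to 754 scaled CPM in EVI1+18 and 981 in EVI1-WT, a ratio of 0.768 (0.752 to 0.785).

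SREBP acts on promoters together with the CCAAT-binding factor NF-Y, and 4 windows are shown: Hmgcs1 as the 1 member with the sterol element searched for, Idi1 and Cyp51 as called genes with a window, and Fasn from the fatty acid branch. Each window runs from 250 bases before to 50 bases after a RefSeq start (GRCm38.p6), and is written 5′ to 3′ on the gene's own strand. Capitals mark the sterol element TCACNCCAC and the CCAAT box, on either strand, so that a CCAAT box on the other strand reads ATTGG. The windows lie at chr13:119690101-119690400 for Hmgcs1 (plus strand), chr5:4104648-4104947 for Cyp51 (minus), chr13:8885356-8885655 for Idi1 (plus) and chr11:120824498-120824797 for Fasn (minus).
Hmgcs1: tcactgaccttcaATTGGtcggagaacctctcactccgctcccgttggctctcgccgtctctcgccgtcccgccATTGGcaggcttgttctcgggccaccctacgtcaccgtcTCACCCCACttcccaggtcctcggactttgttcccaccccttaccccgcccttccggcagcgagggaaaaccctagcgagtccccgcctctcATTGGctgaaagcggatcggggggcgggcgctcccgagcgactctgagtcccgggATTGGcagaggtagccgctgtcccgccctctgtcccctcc
Cyp51: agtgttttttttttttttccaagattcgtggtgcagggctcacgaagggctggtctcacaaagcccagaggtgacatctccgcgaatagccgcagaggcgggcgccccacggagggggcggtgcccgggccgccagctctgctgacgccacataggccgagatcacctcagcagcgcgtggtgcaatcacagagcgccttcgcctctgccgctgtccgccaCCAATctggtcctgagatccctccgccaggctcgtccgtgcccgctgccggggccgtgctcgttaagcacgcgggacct
Idi1: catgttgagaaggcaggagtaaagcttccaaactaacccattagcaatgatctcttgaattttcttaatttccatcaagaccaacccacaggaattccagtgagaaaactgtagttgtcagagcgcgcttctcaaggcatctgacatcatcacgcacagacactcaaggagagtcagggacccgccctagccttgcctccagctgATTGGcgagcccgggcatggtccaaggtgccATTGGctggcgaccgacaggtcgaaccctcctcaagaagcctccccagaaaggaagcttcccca
Fasn: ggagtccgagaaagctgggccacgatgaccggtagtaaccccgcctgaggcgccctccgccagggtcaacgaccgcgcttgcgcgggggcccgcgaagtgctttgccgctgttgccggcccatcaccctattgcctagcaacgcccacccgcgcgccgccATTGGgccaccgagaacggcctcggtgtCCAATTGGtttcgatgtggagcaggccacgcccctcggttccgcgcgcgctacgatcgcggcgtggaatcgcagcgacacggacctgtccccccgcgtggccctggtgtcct
Hmgcs1 held the sterol element as TCACCCCAC at position -137 from the start and 4 CCAAT boxes. Cyp51 held 1 CCAAT box and Idi1 held 2. Fasn held 3, of which a pair on opposite strands overlaps. RefSeq windows were found for 26 of the 33 genes. Of these, 1 held TCACNCCAC and 21 held CCAAT in at least 1 window, beside 1.24% and 37.4% of all 32851 windows, and beside 1.35% and 43.5% of the 9545 tested genes with a window. Among the 15 sterol enzymes with a window 14 held CCAAT, and among the 6 fatty acid enzymes 3 did. The GC box GGGCGG was found in 21 of 26 members and 67.5% of tested genes, and the E-box CACGTG in 6 of 26 and 11.7%. Idi1 and Cyp51, of opposite direction, each held a CCAAT box and a GC box, and neither held TCACNCCAC or CACGTG. Other forms of the sterol element were not searched for, so a window without TCACNCCAC may still hold one.

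Among the regulators, Insig1 was the furthest apart. Insig1, which retains the SCAP-SREBP complex and is itself an SREBP target, had 89.1 scaled CPM in EVI1+18 and 142 in EVI1-WT, a ratio of 0.627 (0.591 to 0.665). Its relative Insig2, which serves the same retention but is not driven by sterol depletion in the same way, had 18.6 in EVI1+18 and 23.4 in EVI1-WT, a ratio of 0.794 (0.693 to 0.909). Both retention genes were lower, and per kilobase Insig1 exceeded Insig2 by 5.38-fold in EVI1+18 and 6.81-fold in EVI1-WT, a pair of values that differed by a factor of 0.790 (0.683 to 0.913). The escort gene Scap was the 1 regulator above 0, at 48.2 scaled CPM in EVI1+18 and 42.3 in EVI1-WT, a ratio of 1.14 (1.04 to 1.25), with 13.2% of its exon length overlapped on the opposite strand by 5830462I19Rik, which had 0 counts in EVI1+18 and 9 in EVI1-WT.

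The SREBP genes themselves were abundant and differed little. Srebf2, which favours sterol genes, had 288 scaled CPM in EVI1+18 and 343 in EVI1-WT, a ratio of 0.840 (0.812 to 0.870). Srebf1, which favours fatty acid genes, had 207 in EVI1+18 and 218 in EVI1-WT, a ratio of 0.949 (0.910 to 0.990). The activity of these factors is set by cleavage of the protein, which gene counts do not measure. Stard4, a soluble carrier that moves cholesterol between membranes and is an SREBP target, had 113 scaled CPM in EVI1+18 and 152 in EVI1-WT, a ratio of 0.746 (0.707 to 0.787).

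In the fatty acid branch, all 3 genes of chain synthesis stood lower in EVI1+18. Acly, which cuts citrate to cytosolic acetyl-CoA and so feeds both branches, had 312 scaled CPM in EVI1+18 and 385 in EVI1-WT, a ratio of 0.810 (0.784 to 0.837). Acaca, the acetyl-CoA carboxylase that commits carbon to fatty acids, had 122 in EVI1+18 and 163 in EVI1-WT, a ratio of 0.751 (0.713 to 0.791). Fatty acid synthase, Fasn, had 7098 counts in EVI1+18 and 10682 in EVI1-WT, or 331 and 533 scaled CPM, a ratio of 0.620 (0.602 to 0.639). The difference was thus smallest in ratio at Acly and largest at Fasn. These 3 genes and Srebf1 all lie on chromosome 11, at separate places. Of the 50-base words of Acaca, 30.4% occur at other loci, and its processed pseudogene Gm5182 had 22 counts in EVI1+18 and 28 in EVI1-WT.

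The 2 stearoyl-CoA desaturases, which make monounsaturated fatty acids, differed from each other. Scd1 (ENSMUSG00000037071; chromosome 19, 44394455 to 44407879) had 3839 counts in EVI1+18 and 6661 in EVI1-WT, or 179 and 333 scaled CPM, a ratio of 0.538 (0.517 to 0.560). Scd2 (ENSMUSG00000025203), its neighbour at 44293674 to 44306864, had 39808 counts in EVI1+18 and 41260 in EVI1-WT, or 1855 and 2060 scaled CPM, a ratio of 0.901 (0.888 to 0.913). Scd2 was the dominant form. Per kilobase, Scd1 stood at 0.108 of Scd2 in EVI1+18 and 0.180 in EVI1-WT, so that the share of Scd1 relative to Scd2 was 1.67-fold lower in EVI1+18 (1.61 to 1.75) whatever the scaling. Of the 50-base words of Scd1, 4.56% were found exactly at other loci of any kind. Scd2 nonetheless aligned to 83.1% of a Scd1 transcript at 95.5% identity, and how multi-mapping reads were handled is not known.

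The elongases and front-end desaturases split in direction. Elovl5, which lengthens polyunsaturated chains, had 124 scaled CPM in EVI1+18 and 157 in EVI1-WT, a ratio of 0.791 (0.751 to 0.833). Elovl6, which takes palmitate to stearate, had 72.1 in EVI1+18 and 76.7 in EVI1-WT, with an interval from 0.875 to 1.01 that included equality. The desaturase genes Fads1 and Fads2, which work in turn on polyunsaturated chains and lie near each other on chromosome 19, were both above 0. Fads1 had 153 scaled CPM in EVI1+18 and 136 in EVI1-WT, a ratio of 1.13 (1.07 to 1.19). Fads2 had 357 in EVI1+18 and 317 in EVI1-WT, a ratio of 1.13 (1.09 to 1.16). The level of Fads1 relative to Fads2 was accordingly close in the 2 libraries, differing by a factor of 1.002 (0.943 to 1.06).

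Levels of different genes were compared per kilobase of merged exons, which understates a gene with many alternative exons. Scd2 was the most abundant in both libraries, at 340 scaled CPM per kilobase in EVI1+18 and 377 in EVI1-WT. Idi1 was the second most abundant in EVI1+18, at 135, and the sixth in EVI1-WT, at 57.8. Cyp51 stood at 26.8 in EVI1+18 and 59.9 in EVI1-WT, which moved it to place 14 in EVI1+18 against place 5 in EVI1-WT. Scd1 was at place 8 in EVI1+18 and 4 in EVI1-WT. At the low end, Fdps, Tm7sf2 and Hsd17b7 held the last 3 places in both libraries, at 1.09, 3.20 and 3.79 scaled CPM per kilobase in EVI1+18 and 3.01, 4.84 and 4.51 in EVI1-WT. The level of Fdps carries the uncertainty given above.

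**Figure D3:**
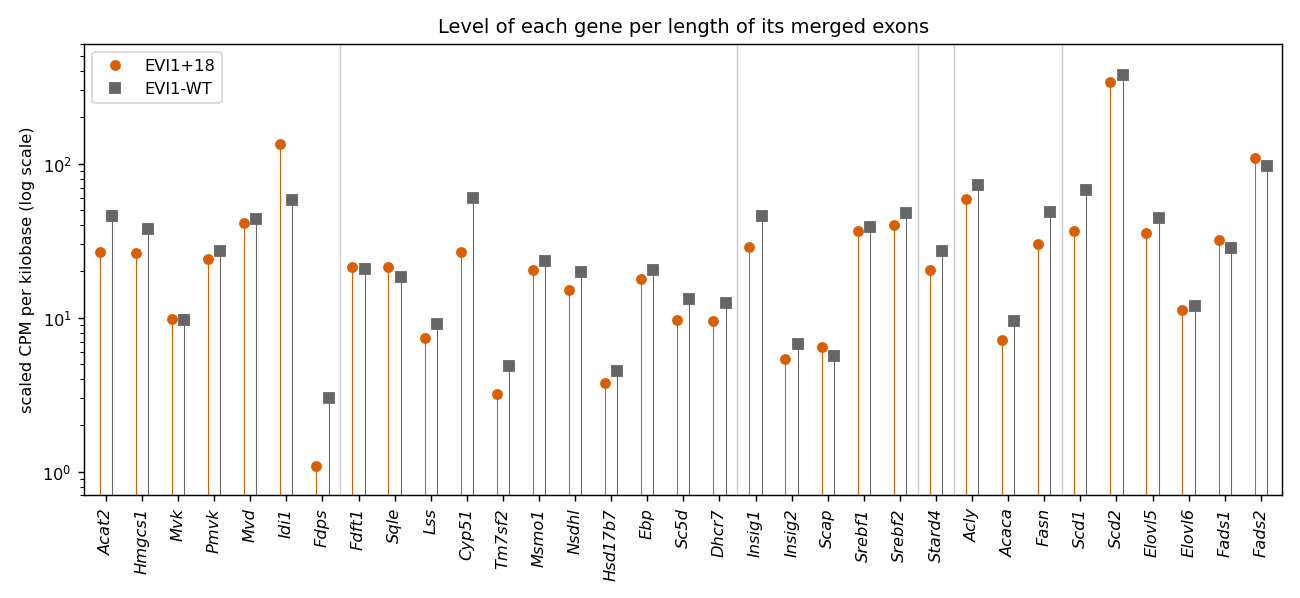
Scaled CPM per kilobase of merged exons on a log scale for each gene, with EVI1+18 as circles and EVI1-WT as squares, 1 library each, in pathway order with thin lines between branches. Scd2 is highest in both libraries, at 340 and 377, and Idi1 and Cyp51 differ in opposite directions.

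Neighbouring pathways did not all share the slightly lower levels. Of 9 genes that use isoprenoids outside sterol synthesis, 0 were called, beside 10.1% of tested genes. Among these 9 genes 5 lay above 0 and 4 below, with a median log2 ratio of 0.30. The mean was 0.09 and their summed level had a ratio of 1.01 (0.976 to 1.04), so the list as a whole did not stand higher. The prenyltransferase subunits Pggt1b and Fntb, which attach isoprenoids to proteins, had ratios of 1.32 (1.22 to 1.44) and 1.41 (1.21 to 1.65), whereas Nus1, a subunit of the dolichol-forming transferase, had 0.812 (0.770 to 0.855) and the geranylgeranyl diphosphate synthase Ggps1 0.792 (0.708 to 0.885). The chain-building genes did not run together, since the polyprenyl synthase gene Pdss1 had a ratio of 1.26 (1.05 to 1.51). Of 8 genes of SREBP cleavage and of the ligases and partners of INSIG and the reductase, 0 were called, beside the same 10.1%. Among these 8 genes 5 lay below 0, with a median of -0.11. The ligase gene Rnf139 had a ratio of 1.41 (1.27 to 1.57), and Erlin2 and Rnf145 had 0.696 (0.632 to 0.766) and 0.807 (0.746 to 0.873).

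Of 12 genes of the sterol sensor LXR, cholesterol efflux and storage, 1 was called, beside 10.1% of tested genes. Abca1, the transporter that exports cholesterol to lipid-poor apolipoprotein and a target of LXR, had 593 counts in EVI1+18 and 120 in EVI1-WT, or 27.6 and 5.99 scaled CPM, a ratio of 4.61 (3.78 to 5.66). The other genes of this list lay 5 above and 6 below 0. Abcg1, another LXR target, had 128 scaled CPM in EVI1+18 and 112 in EVI1-WT, a ratio of 1.15 (1.08 to 1.21), and the LXR target Mylip had 33.1 and 52.1, a ratio of 0.636 (0.578 to 0.701). The LXR targets thus did not run together. The lysosomal lipase Lipa had a ratio of 1.30 (1.23 to 1.37) and the cholesteryl ester hydrolase Nceh1 0.548 (0.506 to 0.593). Abca1 and Lipa are also made by macrophages. The macrophage markers summed to 1726 scaled CPM in EVI1+18 and 811 in EVI1-WT, of which Gpnmb alone held 1214 and 242. The part of that difference in the ratios of Abca1 and Lipa was not tested.

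Of 18 further genes of fatty acid synthesis and activation 16 were tested and 0 were called, beside 10.1% of all tested genes. Among the 16 genes 11 lay below 0, with a median of -0.13. Malic enzyme, Me1, which supplies NADPH, had 128 counts in EVI1+18 and 295 in EVI1-WT, a ratio of 0.405 (0.327 to 0.500016) that just missed the rule. The acyl-CoA synthetases diverged, with Acsl4 at a ratio of 0.572 (0.538 to 0.608) and Acsl5 at 1.40 (1.35 to 1.47), and the acetyl-CoA synthetase Acss2 stood at 1.39 (1.31 to 1.48). With the 1.5-fold rule Me1 and Acsl4 were called lower, beside 9.79% of tested genes. Of 13 genes of fatty acid oxidation 12 were tested and 0 were called, beside the same 10.1%. Among the 12 genes 8 lay above 0, with a median of 0.14. Etfb, a subunit of the electron carrier of oxidation, had a ratio of 1.75 (1.504 to 2.04) and the carnitine palmitoyltransferase Cpt2 1.66 (1.502 to 1.84), both called higher with the 1.5-fold rule, beside 8.29% of tested genes. Acadl and Hadhb had 0.765 (0.729 to 0.801) and 0.888 (0.835 to 0.945). Synthesis and oxidation genes thus had medians of opposite sign, a difference that was not tested.

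**Figure D4:**
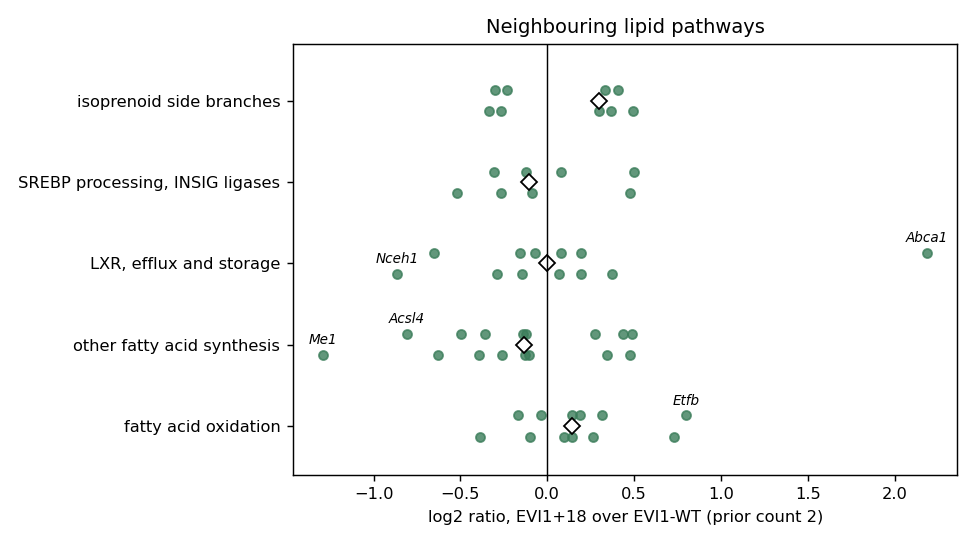
Log2 ratio of EVI1+18 over EVI1-WT for each tested gene of 5 neighbouring lists, 1 library per vector, with points offset vertically for legibility and diamonds at the list medians. Abca1 stands apart at the right and Me1 at the left. The medians of isoprenoid use and fatty acid oxidation, 0.30 and 0.14, lie above 0, although 4 of the 9 isoprenoid genes lie below 0.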

How the data were processed

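RNA was sequenced from 2 cultures, 1 per vector, and columns of the table were assigned by name. The counts are whole reads per Ensembl gene, which the authors deposited without normalization. Tools named in the submitters' processing notes are edgeR, Subread with featureCounts, SAMtools and HISAT2 2.2.1, on GRCm38. Not given in the sources used here are their settings, the annotation release, and how strand and multi-mapping reads were handled.

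Of 55487 IDs, 55227 matched GENCODE M21 on GRCm38, which supplied symbols, coordinates and exon lengths. Libraries were scaled with edgeR 4.0.16 (TMM, R 4.3.3). Clopper-Pearson intervals came from scipy 1.17.1, and intervals of within-library pairs from a normal approximation on the log scale. With 1 library per group, edgeR's quasi-likelihood test could not be fitted. Log2 ratios used a prior count of 2, and ratios used none. The floor of 3 counts is 0.140 scaled CPM in EVI1+18 and 0.150 in EVI1-WT. Copies were found with BLAST 2.17.0 at 90% identity, over at least 50% of the copy and 20% of the member's transcript. Promoters came from RefSeq (GRCm38.p6). Reads carry no molecular identifiers and are not independent molecules.

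The members and lists were chosen with earlier results of these data known. All members are named, and of each neighbouring list up to 2 genes in each direction with the largest conservative fold (the interval bound nearest to 1); Abcg1 and Pdss1 were added after their values were seen. Some genes that this rule names are not reported here.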

Additional observations from a re-analysis of the deposited data

How the results depend on the processing

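Of the 9 alternatives, only the other scalings and the added reads of copies could change a ratio, the latter for 5 members. Under these, 0 of the 33 members had a ratio that crossed 1, though the counting intervals of 4 members included 1. Each other scaling raised the ratios of EVI1+18 over EVI1-WT, so a member above 1 could not cross it through scaling. Idi1 stayed the 1 member called higher under the alternatives that give calls. With the 1.5-fold rule the members called lower numbered 6, against 2 with the 2-fold rule, and the tested genes called numbered 1093 higher and 1290 lower, against 666 and 672. With a filter at 5 scaled CPM, which tests fewer genes, 431 tested genes were called higher. The median log2 ratio of the fatty acid genes was -0.24 with plain library totals, against -0.30, under a scaling that raised the median of all tested genes to 0.08. The other medians ranged from -0.27 to -0.21 for the sterol genes and from -0.25 to -0.19 for the regulators, and the mean in place of the median was -0.30 for the sterol genes. Adding reads of annotated copies changed no member's call. No paired analysis was possible because each vector has 1 library, and for the same reason no library could be left out. Depth limits the low genes, above all Fdps with 98 counts in EVI1+18 and 254 in EVI1-WT.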
